A study of Mus musculus with 10 samples.

Results

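Aminoacyl-tRNA synthetases, the enzymes that attach each amino acid to its tRNA, were followed through ribosome profiling of mouse embryonic stem cells that lacked, by their labels, parts of the miRNA pathway. The members were the 36 synthetase genes whose symbol was found among the 11011 genes of the count table, 20 cytosolic and 16 mitochondrial (symbols ending in 2). All 36 passed the filter on low counts, which left 10978 genes for testing. The 10 libraries came from the E14 line, an embryonic stem cell line of 129/Ola background derived from the blastocyst, grown on gelatine with serum and the cytokine LIF, which keeps such cells undifferentiated. There were 2 libraries in each of 5 groups. The tested groups were the libraries labelled Dgcr8 knockout, the Drosha knockout, the Dicer knockout and the double knockout of Ago1 and Ago2 (Ago knockout), and they were set against wild-type (WT) E14 cells. Drosha, with its partner Dgcr8, cleaves long miRNA transcripts into hairpins, Dicer trims those hairpins to miRNAs, and Ago proteins carry the miRNAs to their targets. The labels do not say how many clones stood behind a knockout or which part of each gene was removed. All cells were treated with cycloheximide before lysis, and the stated aim was a record of ribosome binding in WT cells and in the mutants. No mRNA libraries were analysed here, so a difference in footprints includes any difference in mRNA amount.

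Every amino acid needs its own synthetase, and mitochondria, which make a few proteins of the respiratory chain from their own genome, use a separate set of enzymes encoded in the nucleus. In the cytosol some synthetases join a large multisynthetase complex (Dars, Eprs, Iars, Kars, Lars, Mars, Qars and Rars), while others act on their own. Gars and Kars each supply both compartments and were counted as cytosolic. Many cytosolic synthetase genes are known targets of Atf4, the transcription factor of the amino acid response, which binds DNA together with C/EBP proteins at short composite elements. The list of such targets used here held 12 cytosolic genes (Aars, Cars, Eprs, Gars, Iars, Lars, Mars, Nars, Sars, Tars, Wars and Yars).

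Promoters of the members are shown first, because all matches to the letters of that composite element lay in cytosolic genes. RefSeq promoter sequences (build GRCm38.p6, 250 bases before to 50 bases after the gene start) were at hand for 26 of the 36 members, 12 cytosolic and 14 mitochondrial. The element's core TGATGCAA, searched on both strands, stood in 4 of the 12 cytosolic promoters (33.3%) and in 0 of the 14 mitochondrial ones, against 0.767% of the 8730 genes of the table with a promoter sequence and 1.03% of all 27025 promoters. The looser form TGATGNAAN, of which the core is a stricter case, stood in 5 of 12 cytosolic and 0 of 14 mitochondrial promoters, against 2.62% of the genes of the table and 4.5% of all promoters. The 5 promoters belonged to genes on the Atf4 list, of which 7 had a sequence, and 0 of the 5 unlisted cytosolic promoters held a match. In the 4 windows below, chosen as examples of the matches and read 5′ to 3′ along the strand of the gene, capitals mark the 9 letters that match TGATGNAAN on one strand or the other.
Gars: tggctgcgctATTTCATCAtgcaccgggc
Iars: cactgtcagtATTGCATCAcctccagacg
Tars: caggagtcccGTTGCATCAgctggttagc
Yars: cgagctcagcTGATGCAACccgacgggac
The windows lie at chr6:55037960-55037988 for Gars, chr13:49682126-49682154 for Iars, chr15:11399656-11399684 (minus strand) for Tars and chr4:129189896-129189924 for Yars. Counted from the first base of the gene as 0, the matches began at -31 in Gars, 6 in Iars, -16 in Tars and 3 in Yars. A match describes letters in a window and does not show that a factor bound there.

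Libraries held between 1754710 counts (the second Dicer library) and 80850950 counts (the first Dgcr8 library), and the 2 Drosha libraries were also shallow at 1854243 and 2230566 counts. Counts were scaled to counts-per-million (CPM) with trimmed-mean (TMM) library sizes. Synthetases took between 1.00% and 1.50% of the counts of a library. Drosha, Dicer1 and Ago2 had lower levels in both libraries of their own knockouts than in WT, while Ago1 in the Ago knockout overlapped WT. Dgcr8 stood at 144.8 and 145.6 CPM in the libraries labelled Dgcr8 knockout, against 32.7 and 33.1 CPM in WT. The counts thus did not show a loss of Dgcr8 in those libraries (called Dgcr8 libraries below). With the deleted stretch of the gene unknown, a raised count cannot decide whether the label holds. Directions for the Dgcr8 libraries carry this open question, and the cause of the rise was not tested. Dgcr8 was also above WT in the other knockouts, at 169 and 198 CPM in Drosha, 64.5 and 76.1 CPM in Dicer and 74.6 and 63.5 CPM in Ago. Over all genes the correlation of log CPM of the first Dgcr8 library was 0.962 with the first WT library and 0.933 with the second Dgcr8 library. The 10 markers of pluripotent stem cells summed to 4867 to 6216 CPM in the knockout libraries and 6016 to 6178 CPM in WT, and all 10 were detected in each group. Klf4, one of them, was lower in Drosha, Dicer and Ago (log2 -1.52, -2.91 and -1.62, edgeR adjusted p of 0.035, 0.0018 and 0.028). Markers of primitive endoderm, a cell type that stem cell cultures can form, were found for 7 of 9 genes. They summed to 268 and 2683 CPM in the Dgcr8 libraries, 398 to 444 CPM in Drosha, 210 to 275 CPM in Dicer (Gata6 at 0) and 427 to 554 CPM in Ago, against 5034 to 5712 CPM in WT. Trophectoderm markers (4 of 8 found) summed to 135 to 206 CPM in Dgcr8, 311 to 343 CPM in Drosha, 476 to 672 CPM in Dicer and 157 to 178 CPM in Ago, against 125 to 136 CPM in WT, and fibroblast markers (4 of 8 found) to 41.4 to 173 CPM over the knockout libraries, against 220 to 248 CPM in WT. Neural markers (2 of 4 found) summed to 61.2 to 136 CPM over the knockout libraries, against 71.5 to 72.1 CPM in WT. Their sum was above WT in every Drosha, Dicer and Ago library, but in Dicer the 2 genes went opposite ways. Nes had 61.3 and 54.6 CPM in Dicer, against 18.9 and 17.5 CPM in WT. Tubb3 had 33.6 and 37.5 CPM in Dicer, against 53.2 and 54.0 CPM in WT, and was also below WT in the first Drosha library (32.7 CPM). By these sums, primitive endoderm and fibroblast markers were lower in every comparison with WT given below. The trophectoderm and neural sums were higher in all but Dgcr8, where 1 library overlapped WT or lay below it. All 7 primitive endoderm markers had negative log2 fold changes in each knockout, but other markers did not all follow their sums. Fibroblast markers were positive for 1 of 4 in Dgcr8 and 2 of 4 in Ago, and 2 of 4 trophectoderm markers were negative in Ago. The part of these marker differences in the synthetase values was not tested. In such bulk libraries, fewer cells of a type and fewer footprints per cell cannot be told apart.

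In WT cells the classes were separate in level. Per kilobase of coding length, cytosolic synthetases ran from 123 ± 2.19 CPM per kb for Qars, the glutaminyl-tRNA synthetase, to 786 ± 1.84 CPM per kb for Nars, the asparaginyl-tRNA synthetase (mean ± SD, n = 2 libraries, as throughout). Mitochondrial synthetases ran from 4.99 ± 0.542 CPM per kb for Wars2, which charges tryptophan, to 114 ± 1.77 CPM per kb for Iars2, which charges isoleucine. Iars2, the highest of the mitochondrial class, therefore lay below Qars, the lowest of the cytosolic class by its mean, in both WT libraries. Among cytosolic genes, Nars, Gars and Sars were each above the next gene in the order in both libraries. Hars and Farsa could not be separated, nor Farsa and Qars. Among mitochondrial genes, Iars2, Yars2, Tars2 and Rars2 stood apart from each other, the 10 genes from Aars2 to Lars2 formed a run in which no gene was separate from its neighbour, and Pars2 and Wars2 lay below that run.

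**Figure D1:**
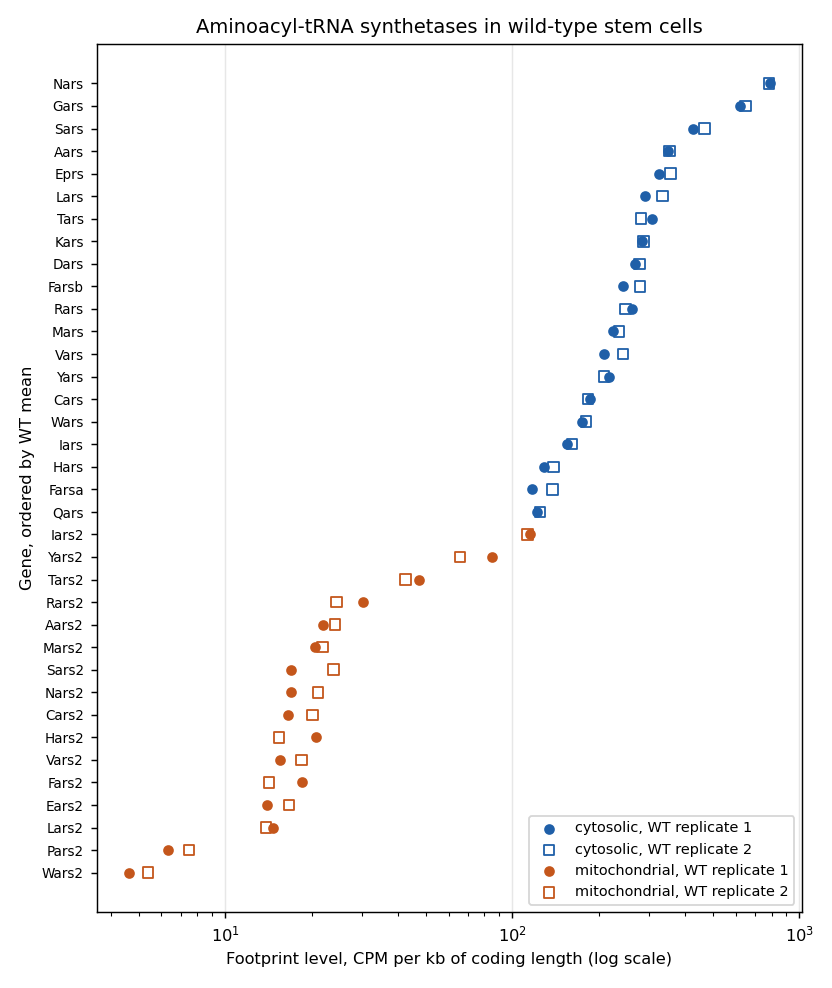
Footprint level of the 36 synthetase genes in the 2 WT libraries, in CPM per kb of coding length on a log axis, with genes ordered by their WT mean. Cytosolic genes (blue) run down to Qars at 123 CPM per kb and mitochondrial genes (orange) start with Iars2 at 114 CPM per kb, with filled circles for replicate 1 and open squares for replicate 2.

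The gap between the classes was present in every library. The median cytosolic level over the median mitochondrial level, per kb, was 13.1 and 9.11 in the Dgcr8 libraries, 10.5 and 9.55 for Drosha, 10.5 and 11.1 for Dicer and 9.66 and 14.2 for Ago, against 14.2 and 12.8 in WT. The ranges of the classes overlapped in 3 of the knockout libraries. In the second Dgcr8 library 3 mitochondrial genes were above the lowest cytosolic gene, which was Cars there, in the first Drosha library 2 were, above Wars, and in the first Dicer library 1 was. Nars was the highest cytosolic gene and Iars2 the highest mitochondrial gene in all 10 libraries.

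None of the genes at the ends of the WT order was called in a knockout by edgeR. Nars had 1313 and 584 CPM in the Dgcr8 libraries, 1018 and 1197 CPM in Drosha, 1107 and 919 CPM in Dicer and 1096 and 1199 CPM in Ago, against 1321 and 1316 CPM in WT. All 8 knockout libraries were below both WT libraries, the second Dgcr8 library by the most. Iars2 had 324 and 213 CPM in the Dgcr8 libraries, 243 and 228 CPM in Drosha, 452 and 274 CPM in Dicer and 264 and 241 CPM in Ago, against 350 and 343 CPM in WT, and 7 of the 8 knockout libraries were below WT, the first Dicer library being above it. Wars2 had 6.88 and 4.58 CPM in the Dgcr8 libraries, 4.75 and 6.99 CPM in Drosha, 5.93 and 9.38 CPM in Dicer and 4.60 and 7.14 CPM in Ago, against 4.98 and 5.81 CPM in WT. Wars2 rested on as few as 9 counts in the first Drosha library, and its Dicer libraries were above WT while the other groups overlapped it.

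For 13 amino acids both a cytosolic and a mitochondrial enzyme were among the members. In WT the cytosolic gene of a pair had from 1.4 (isoleucine) to 41.7 (asparagine) times the level per kb of its mitochondrial partner. The histidine pair moved apart. The log2 ratio of Hars2 to Hars per kb was -3.32 and -3.86 in the Dgcr8 libraries, -4.09 and -5.97 for Drosha, -4.35 and -3.91 for Dicer and -3.69 and -4.70 for Ago, against -2.63 and -3.17 in WT. All 8 knockout libraries lay below both WT libraries. For tryptophan the log2 ratio of Wars2 to Wars was above both WT libraries in every knockout library, with group means of -4.84 ± 0.04 for Dgcr8, -4.26 ± 0.99 for Drosha, -4.08 ± 0.66 for Dicer and -4.56 ± 0.28 for Ago, against -5.16 ± 0.12 in WT. Wars2 was low in every library (4.58 to 9.38 CPM). Over the 13 pairs, the median difference of this ratio from WT was 0.29 for Dgcr8, -0.03 for Drosha, 0.16 for Dicer and 0.19 for Ago. These 4 values share the WT libraries, and no test was made over pairs.

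Few synthetases passed a test in any knockout. With edgeR's quasi-likelihood test and Benjamini-Hochberg adjustment over all 10978 genes at a threshold of 0.05, 0 of 36 members were called in the Dgcr8 libraries (0.0729% of all genes were), 1 in Drosha (3.44%), 1 in Dicer (11.1%) and 0 in Ago (2.88%). For the mean of the 4 knockouts against WT, 1 of 36 was called, against 7.07% of all genes. The single called gene was Hars2 each time, and it was lower. Calls in that direction made up 0.0182% of all genes for Dgcr8, 0.966% for Drosha, 3.76% for Dicer, 0.902% for Ago and 3.26% for the mean, so 1 member of 36 is not far from the share among all genes. Members with an unadjusted p under 0.05 numbered 0 for Dgcr8 (9.81% of all genes), 2 for Drosha (19.2%), 3 for Dicer (27.0%), 3 for Ago (19.7%) and 4 in the mean (23.7%). These are fewer than the shares of all genes in either direction would give, but all of these members were lower. In that direction 517, 893, 1304, 872 and 1198 of the 10978 genes had such a p in the same order. Against lower genes alone, the counts for Ago and the mean are near the share and the others are below it. DESeq2 called 0, 1, 1, 1 and 2 members in the same order, against 1.46%, 8.85%, 17.1%, 8.49% and 13.2% of all genes. Calls by limma-voom numbered 0, 0, 0, 1 and 1, against 0.137%, 1.01%, 9.52%, 8.58% and 8.78% of all genes.

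Hars2, the mitochondrial histidyl-tRNA synthetase (ENSMUSG00000019143, chromosome 18, 36783008 to 36792562, plus strand, GRCm38), fell in the Drosha and Dicer knockouts. It had 21.9 and 13.8 CPM in the Dgcr8 libraries, 9.50 and 3.93 CPM in Drosha, 6.92 and 9.93 CPM in Dicer and 12.9 and 8.83 CPM in Ago, against 31.4 and 23.3 CPM in WT. All 8 knockout libraries were below both WT libraries, and the Dgcr8 libraries were the closest to WT. These levels rest on 1810 and 69 counts for Dgcr8, 18 and 9 for Drosha, 35 and 18 for Dicer, 182 and 298 for Ago, and 341 and 562 in WT. The log2 fold change was -2.05 in Drosha (SE 0.50, adjusted p = 0.049, edgeR quasi-likelihood test with Benjamini-Hochberg adjustment) and -1.73 in Dicer (SE 0.48, adjusted p = 0.039, same test). In the other groups the edgeR values were -0.60 in Dgcr8 (SE 0.44, adjusted p = 0.71) and -1.34 in Ago (SE 0.44, adjusted p = 0.13), and DESeq2 and limma-voom gave adjusted p of 0.046 and 0.027 in Ago. For the mean of the 4 knockouts it was -1.43 (SE 0.33, adjusted p = 0.025, edgeR).

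The calls of Hars2 were close to the threshold. In Drosha, edgeR no longer called it without either Drosha, either Dicer or either WT library (adjusted p from 0.039 to 0.24 over all libraries left out in turn), with total count scaling (0.052) or with limma-voom (0.20). In Dicer, edgeR did not call it without either Dicer or either WT library (0.025 to 0.29 over all libraries left out), and limma-voom gave 0.065. The call on the mean was lost without the first Dicer library or either WT library. The log2 value stayed between -2.80 and -1.52 in Drosha and between -1.98 and -1.45 in Dicer over these. Hars2 and Hars overlap head to head on opposite strands by 198 bases, and the strand setting of the counting is not given, so reads in the overlap cannot be assigned. Hars itself, the cytosolic histidyl-tRNA synthetase, had 220 and 202 CPM in the Dgcr8 libraries, 164 and 248 CPM in Drosha, 143 and 151 CPM in Dicer and 168 and 232 CPM in Ago, against 196 and 212 CPM in WT. Its Dicer libraries were below both WT libraries and its other groups overlapped WT, with edgeR adjusted p between 0.30 and 0.99.

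**Figure D2:**
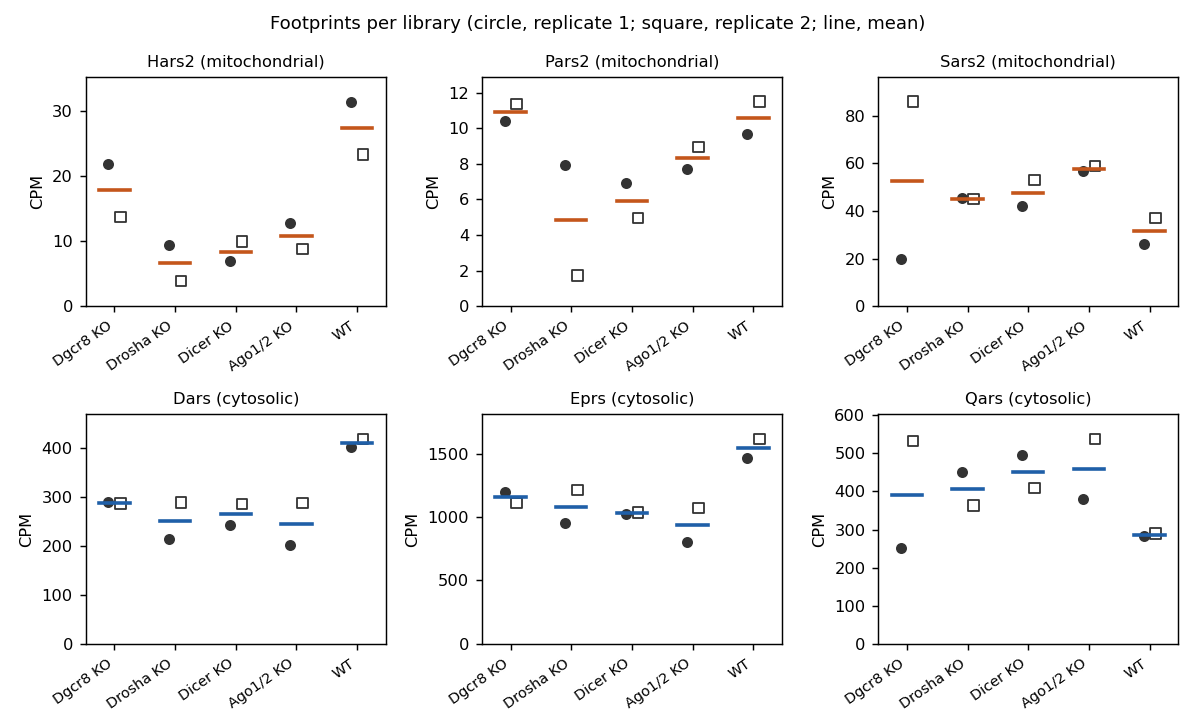
CPM in each of the 10 libraries for 3 mitochondrial (Hars2, Pars2, Sars2) and 3 cytosolic (Dars, Eprs, Qars) synthetases, with circles for replicate 1, squares for replicate 2 and a line at the group mean. Hars2, Dars and Eprs lie below both WT libraries in all 8 knockout libraries, while Qars and Sars2 lie above them in 7 of 8.

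As a class, the cytosolic synthetases sat somewhat below WT. The median log2 fold change of the 20 genes was -0.29 for Dgcr8, -0.30 for Drosha, -0.39 for Dicer and -0.23 for Ago, while the median of all genes tested was 0.02, -0.01, 0.00 and 0.04. The median of the 16 mitochondrial genes was -0.05, 0.02, -0.02 and -0.11 in the same order. Negative values were found for 16, 15, 17 and 15 of 20 cytosolic and for 9, 8, 8 and 10 of 16 mitochondrial genes. The comparisons share the WT libraries, so these values do not support each other, and no cytosolic gene was called in them. The cytosolic median in Dgcr8 was -0.09 without the second Dgcr8 library and -0.51 without the first, in Drosha -0.09 without the first Drosha library, and in Ago -0.02 without the first Ago library, so those medians rest on single libraries. In Dicer it stayed between -0.42 and -0.34 with each library left out in turn.

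**Figure D3:**
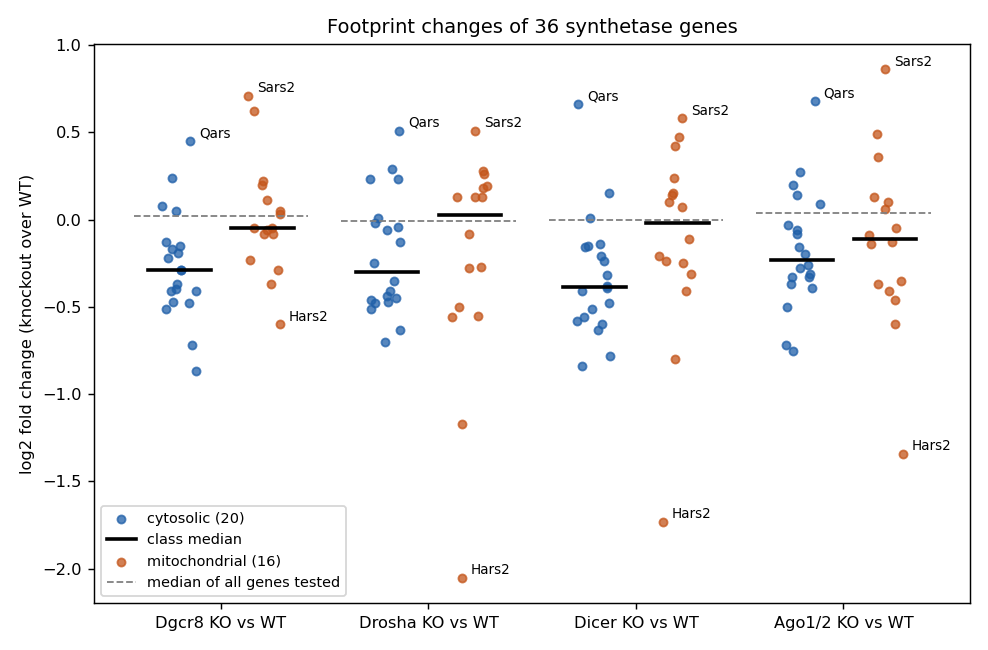
log2 fold change of each of the 36 synthetases in each knockout over WT, from edgeR, with cytosolic genes in blue and mitochondrial genes in orange, black bars at class medians and a dashed line at the median of all genes tested. The cytosolic medians lie between -0.39 and -0.23 and the mitochondrial ones between -0.11 and 0.02, and Hars2 is the lowest point in every comparison but Dgcr8, where Cars is at -0.87.

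Counted by libraries, 11 of 20 cytosolic genes had both Dgcr8 libraries below both WT libraries (55%, against 22.9% of all genes tested), and the same held for 11 genes with Drosha (55%, against 27.9%), 16 with Dicer (80%, against 34.6%) and 10 with Ago (50%, against 26.1%). Both were above for 1, 1, 2 and 4 of 20, against 22.0%, 25.9%, 32.7% and 27.2% of all genes. Of the 16 mitochondrial genes, 2, 6, 5 and 6 were below and 2, 2, 4 and 3 above. The 2 WT libraries differed by a median absolute log2 of 0.07 over the cytosolic genes and 0.24 over all genes tested. A closer WT pair is easier to lie outside of, so the shares of all genes are not a like baseline. The share of all genes below both WT libraries in each of the 8 knockout libraries was not counted, and the comparisons share the WT libraries. Cars, Dars, Eprs, Gars, Lars, Mars and Nars were below both WT libraries in each of the 8. Among them, Lars, Mars and Nars had log2 fold changes between -0.56 and -0.20 in the 4 knockouts, and Cars and Gars between -0.87 and -0.33. Kars, Rars, Sars and Vars had values between -0.41 and 0.23. Wars, the tryptophanyl-tRNA synthetase, had values between -0.60 and -0.22, and its 2 Drosha libraries lay far apart at 74.9 and 290 CPM, against 252 and 261 CPM in WT.

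Summed over the class, cytosolic synthetases had 10750 ± 2502 CPM in Dgcr8, 11660 ± 2227 CPM in Drosha, 10960 ± 446 CPM in Dicer and 11840 ± 1563 CPM in Ago, against 13480 ± 474 CPM in WT. Mitochondrial synthetases had 901 ± 14.6, 823 ± 13.5, 966 ± 159 and 883 ± 74.3 CPM in the same knockouts, against 975 ± 16.8 CPM in WT. The mitochondrial share of all synthetase counts was 6.65% and 9.22% in the Dgcr8 libraries, 7.62% and 5.79% for Drosha, 8.73% and 7.42% for Dicer and 8.01% and 6.03% for Ago, against 6.98% and 6.52% in WT. Only the Dicer libraries were both on one side of the 2 WT libraries, above them. The log2 ratio of the summed mitochondrial to the summed cytosolic counts differed from WT by 0.23 for Dgcr8, -0.02 for Drosha, 0.27 for Dicer and 0.05 for Ago, with an SD between replicates of 0.36, 0.30, 0.18 and 0.31 in these knockouts and 0.08 in WT. With the exception of Dicer, these differences were smaller than the spread of the knockout libraries. With 2 libraries against 2, an exact permutation test cannot reach a p under 0.05, and none was run.

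**Figure D4:**
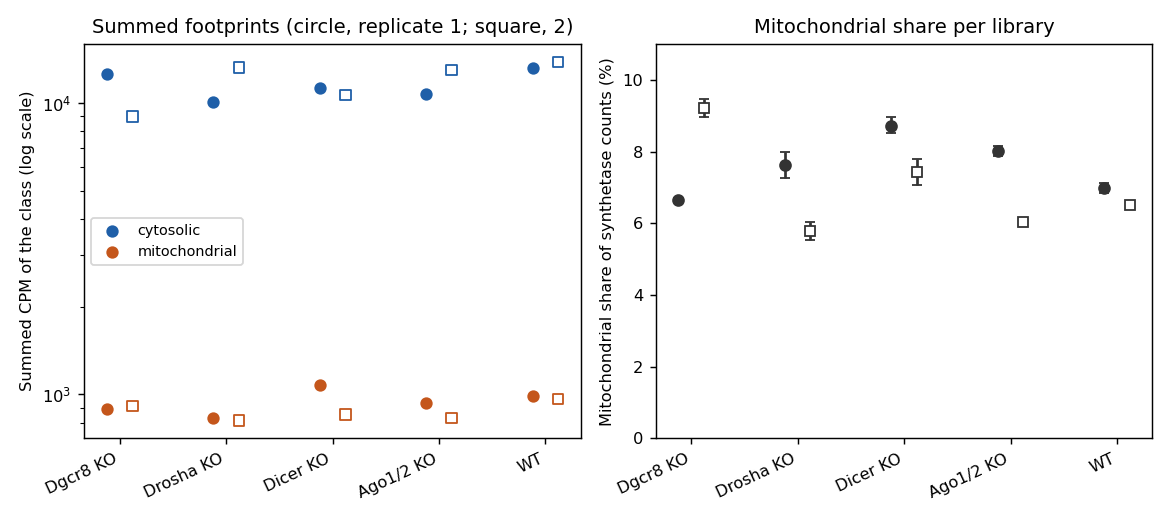
Left, CPM summed over the 20 cytosolic (blue) and 16 mitochondrial (orange) synthetases in each library on a log axis; right, the mitochondrial share of synthetase counts in percent with 95% exact binomial intervals, which cover counting error only. Circles are replicate 1 and squares replicate 2, and the share runs from 5.79% to 9.22% in the knockout libraries and is 6.98% and 6.52% in WT.

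Among cytosolic members, the genes with the lowest mean log2 fold change were Dars and Eprs, both subunits of the multisynthetase complex. Dars, the aspartyl-tRNA synthetase, had 290 and 286 CPM in the Dgcr8 libraries, 214 and 289 CPM in Drosha, 243 and 285 CPM in Dicer and 201 and 287 CPM in Ago, against 401 and 418 CPM in WT. The groups did not overlap WT, and the mean of the 4 knockouts was -0.65 on the log2 scale (SE 0.21, adjusted p = 0.085, edgeR). DESeq2 called Dars for that mean (adjusted p = 0.048), and over the libraries left out in turn edgeR's adjusted p ran from 0.049 to 0.53. Eprs, which joins glutamate and proline to their tRNAs, had 1201 and 1112 CPM in the Dgcr8 libraries, 950 and 1215 CPM in Drosha, 1025 and 1036 CPM in Dicer and 806 and 1070 CPM in Ago, against 1469 and 1616 CPM in WT. Eprs did not overlap WT either, at a log2 mean of -0.56 (SE 0.21, adjusted p = 0.14, edgeR).

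The highest mean log2 fold changes in the cytosolic class belonged to Qars and Farsa. Qars, also a subunit of the complex, had 251 and 533 CPM in the Dgcr8 libraries, 452 and 363 CPM in Drosha, 496 and 409 CPM in Dicer and 380 and 538 CPM in Ago, against 283 and 290 CPM in WT. Both libraries of Drosha, Dicer and Ago were above WT, while the first Dgcr8 library was below it and the second above. The mean was 0.57 on the log2 scale (SE 0.29, adjusted p = 0.26, edgeR). Farsa, the alpha subunit of phenylalanyl-tRNA synthetase, had a mean of 0.13 (SE 0.23, adjusted p = 0.78, edgeR), with 180 and 281 CPM in the Dgcr8 libraries, 200 and 277 CPM in Drosha, 159 and 178 CPM in Dicer and 211 and 237 CPM in Ago, against 179 and 211 CPM in WT. Its partner Farsb, the beta subunit of the same enzyme, had a mean of -0.54 (adjusted p = 0.19, edgeR). The means of the 2 subunit genes thus had opposite signs, a difference that was not tested. In Dicer both were negative, at -0.21 for Farsa and -0.78 for Farsb. The 8 complex members had medians of -0.29, -0.40, -0.28 and -0.27 in Dgcr8, Drosha, Dicer and Ago and the 12 other cytosolic genes had -0.30, -0.15, -0.40 and -0.14.

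Within the mitochondrial class the highest mean log2 fold changes were those of Sars2 and Cars2. Sars2, the mitochondrial seryl-tRNA synthetase, had 19.7 and 85.9 CPM in the Dgcr8 libraries, 45.4 and 45.0 CPM in Drosha, 42.1 and 53.0 CPM in Dicer and 56.6 and 58.8 CPM in Ago, against 26.4 and 37.0 CPM in WT. All libraries of Drosha, Dicer and Ago were above WT, and the 2 Dgcr8 libraries lay on opposite sides of it. The mean was 0.66 on the log2 scale (SE 0.42, adjusted p = 0.37, edgeR). Cars2, the mitochondrial cysteinyl-tRNA synthetase, had 40.3 and 53.2 CPM in the Dgcr8 libraries, 36.9 and 37.1 CPM in Drosha, 23.7 and 29.2 CPM in Dicer and 44.5 and 33.5 CPM in Ago, against 27.4 and 33.4 CPM in WT. Its values were above WT in Dgcr8, Drosha and Ago and overlapped WT in Dicer, at a mean of 0.26 (adjusted p = 0.55, edgeR).

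Pars2, the mitochondrial prolyl-tRNA synthetase, was the lowest after Hars2. It had 10.4 and 11.4 CPM in the Dgcr8 libraries, 7.91 and 1.75 CPM in Drosha, 6.92 and 4.96 CPM in Dicer and 7.71 and 8.95 CPM in Ago, against 9.68 and 11.5 CPM in WT. The second Drosha library holds only 4 counts of Pars2, and without the first Drosha library the log2 value there was -2.60, against -1.17 with both and -0.42 without the second. With all libraries, edgeR's lowest adjusted p for Pars2 in a knockout was 0.31. Ears2, which charges glutamate in mitochondria and supplies the glutamine tRNA there through an amidation step, had log2 fold changes of 0.20 for Dgcr8, 0.26 for Drosha, 0.10 for Dicer and -0.37 for Ago. The other 11 mitochondrial genes had log2 fold changes between -0.60 and 0.49 in all 4 knockouts.

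The 12 cytosolic genes on the Atf4 list had a median log2 fold change of -0.35 for Dgcr8 (12 of 12 negative), -0.42 for Drosha (11), -0.40 for Dicer (10) and -0.27 for Ago (9). For the 8 unlisted cytosolic genes it was -0.06, -0.02, -0.27 and -0.12. None of these single genes was called by edgeR, and 1 listed gene (Eprs in Ago) and 2 unlisted genes (Dars in Drosha, Dicer and Ago, and Farsb in Dicer) had an unadjusted p under 0.05. The 4 genes whose promoter windows are printed above did not share 1 pattern. Tars had log2 fold changes of -0.13 for Dgcr8, -0.02 for Drosha, 0.01 for Dicer and 0.27 for Ago. Gars had -0.72, -0.41, -0.39 and -0.33 in the same order, Iars -0.29, -0.13, -0.14 and -0.06, and Yars -0.41, -0.46, -0.84 and -0.37. Of the other listed genes, Aars, the alanyl-tRNA synthetase, had -0.15, 0.23, 0.15 and 0.09.

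The Atf4 list also marked a difference between the 2 Dgcr8 libraries. Cars, the cysteinyl-tRNA synthetase, had 383 and 122 CPM in the Dgcr8 libraries, against 465 and 457 CPM in WT. Yars, the tyrosyl-tRNA synthetase, had 392 and 148 CPM in the Dgcr8 libraries, against 367 and 353 CPM in WT. The first Dgcr8 library was near WT for both genes and the second was far below it. Over the 12 listed genes, the median log2 ratio of the second Dgcr8 library to the first was -0.80, with values from -1.65 (Cars) to -0.11, while it was 0.02 over the 8 unlisted cytosolic genes, 0.06 over the 16 mitochondrial genes and -0.03 over all genes tested. In the other groups the listed genes differed by 0.30 in Drosha, -0.16 in Dicer, 0.20 in Ago and 0.06 in WT, and the unlisted ones by 0.45, 0.16, 0.48 and 0.09. As a per-library summary, the log2 ratio of summed listed to summed unlisted CPM was 1.72 and 0.74 for Dgcr8, 1.30 and 1.36 for Drosha, 1.50 and 1.37 for Dicer and 1.57 and 1.35 for Ago, against 1.56 and 1.52 in WT. The second Dgcr8 library was the lowest of the 10 and the first the highest. Without the first Dgcr8 library edgeR called Cars in Dgcr8 (log2 -1.92, adjusted p = 0.028), and for the mean of the knockouts it called Cars, Yars, Hars2 and Sars2, where 1 member was called with all libraries. Calls among all genes then numbered 107 for Dgcr8 and 1100 for the mean, against 8 and 776 with all libraries. One library then stands for the group and is assumed to vary like the others.

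**Figure D5:**
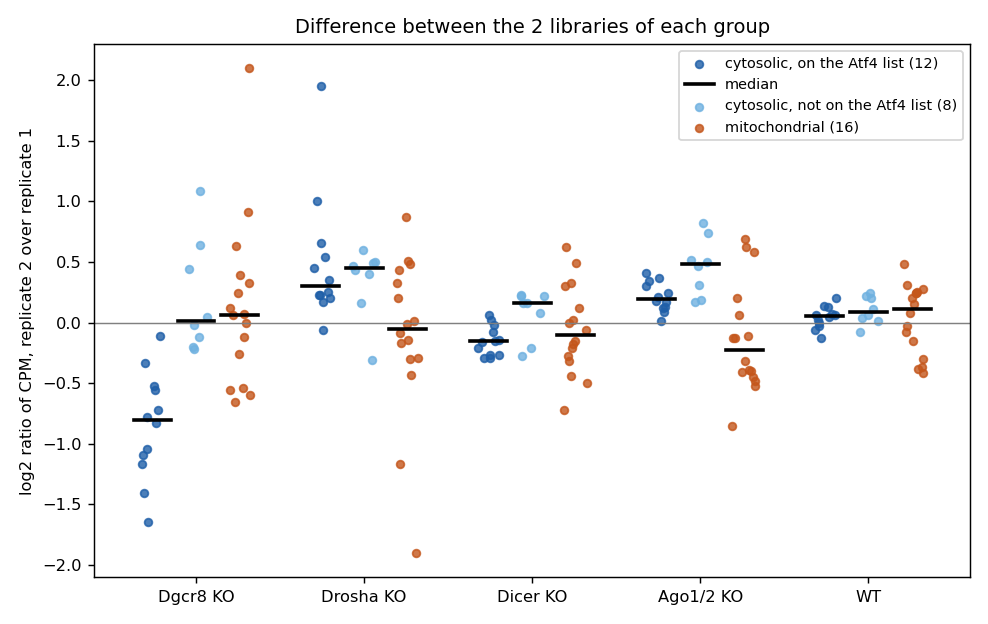
log2 ratio of replicate 2 to replicate 1 for each synthetase in each group, in CPM with a pseudocount of 0.5, split into cytosolic genes on the Atf4 list (dark blue), other cytosolic genes (light blue) and mitochondrial genes (orange), with black bars at medians. The listed genes of the Dgcr8 libraries have a median of -0.80 and all 12 lie below 0, whereas in WT their median is 0.06.

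Other genes of the amino acid response took part in that difference. Over 28 such genes, which include transporters, serine synthesis enzymes and Atf4 itself, the second Dgcr8 library differed from the first by a median log2 of -1.70, against -0.18 in Drosha, -0.57 in Dicer, -0.70 in Ago and -0.04 in WT. Atf4 had 199 and 25.3 CPM in the Dgcr8 libraries, 150 and 97.9 CPM in Drosha, 166 and 119 CPM in Dicer and 261 and 126 CPM in Ago, against 242 and 207 CPM in WT. Asns, the asparagine synthetase, which makes the amino acid rather than charging a tRNA, had 1370 and 548 CPM in the Dgcr8 libraries, 1152 and 1423 CPM in Drosha, 965 and 868 CPM in Dicer and 914 and 1049 CPM in Ago, against 1526 and 1520 CPM in WT. Asns was below both WT libraries in all 8 knockout libraries and Atf4 in 7, and the second Dgcr8 library was the lowest of all 10 for both.

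Against WT, the 28 amino acid response genes had median log2 fold changes of -1.11 for Dgcr8, -0.82 for Drosha, -0.73 for Dicer and -0.32 for Ago. With edgeR, 0 of 28 were called in each single knockout, while 13, 7, 6 and 1 had an unadjusted p under 0.05, against 9.81%, 19.2%, 27.0% and 19.7% of all genes. Those shares count both directions, and on them the count for Dgcr8 is above, those for Drosha and Dicer near and that for Ago below. All of these response genes were lower, however. In that direction 517, 893, 1304 and 872 of the 10978 genes had such a p. Against lower genes alone, the counts for Dgcr8, Drosha and Dicer are above the share and that for Ago is below it. No test was made over the list. For the mean of the 4 knockouts 2 of 28 were called, both lower. Of all genes 3.26% were called lower there and 7.07% in either direction, so the 2 calls are close to the second share and above the first. Ddit4, an inhibitor of the growth kinase mTORC1, had 66.8 and 29.7 CPM in the Dgcr8 libraries, 67.5 and 88.7 CPM in Drosha, 91.8 and 57.9 CPM in Dicer and 122 and 74.7 CPM in Ago, against 147 and 258 CPM in WT (log2 mean -1.47, SE 0.31, adjusted p = 0.018, edgeR). Stc2, a secreted glycoprotein, had a log2 mean of -1.85 (SE 0.45, adjusted p = 0.034, edgeR) and was below both WT libraries in all groups, from 7.57 CPM in the second Dgcr8 library to 124 CPM in the first Dicer library, against 197 and 207 CPM in WT. Without the second WT library the adjusted p was 0.42 for Ddit4 and 0.30 for Stc2, and without the first 0.051 and 0.18. The call of Stc2 was also lost without the second Drosha library (0.051) or the second Dicer library (0.059).

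Genes that work next to the synthetases gave 1 call. Of 13 genes for scaffolds of the multisynthetase complex, proofreading and related steps, edgeR called 0 in each knockout. At an unadjusted p under 0.05 there were 0, 2, 4 and 2 in Dgcr8, Drosha, Dicer and Ago. These counts are near or below the shares of all genes in either direction given above. All of them were lower, and against lower genes alone those for Drosha, Dicer and Ago are above the share, on a list of only 13 genes. Eef1e1, a scaffold protein of the complex, had 81.8 and 62.6 CPM in the Dgcr8 libraries, 41.7 and 38.4 CPM in Drosha, 30.9 and 53.0 CPM in Dicer and 40.9 and 40.0 CPM in Ago, against 84.0 and 75.5 CPM in WT. Every library of Drosha, Dicer and Ago was below both WT libraries and the Dgcr8 libraries overlapped them, at log2 fold changes of -0.99, -0.95 and -0.98 (edgeR adjusted p of 0.11, 0.073 and 0.10) and -0.14 in Dgcr8. DESeq2 gave Eef1e1 an adjusted p of 0.041 in Dicer and 0.039 in Ago, and limma-voom 0.048 and 0.041. The scaffolds Aimp1 and Aimp2 had log2 fold changes between -0.47 and 0.03 in the 4 knockouts.

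Of 20 genes for mitochondrial translation factors and for the processing, modification, delivery and amidation of tRNAs, 1 was called. It was lower in Dicer, where 11.1% of all genes were called and 3.76% were called lower. Trit1, which adds an isopentenyl group to tRNAs, had 20.3 and 21.7 CPM in the Dgcr8 libraries, 17.9 and 16.2 CPM in Drosha, 14.6 and 13.2 CPM in Dicer and 18.5 and 15.1 CPM in Ago, against 27.9 and 31.4 CPM in WT. No knockout library overlapped WT, and the log2 fold change in Dicer was -1.08 (SE 0.32, adjusted p = 0.049, edgeR). That call was lost without either Dicer or either WT library (0.17 to 0.29), with total count scaling or DESeq2 size factors (0.050 and 0.052), and with limma-voom (0.093). Of 5 elongation factor genes, 4 encode Eef1a1, which brings charged tRNA to the ribosome, and subunits of its exchange factor, and the other is Eif5a, which helps the ribosome through difficult peptide bonds and does not deliver tRNA. None of the 5 was called in a knockout. At an unadjusted p under 0.05 there were 0, 2, 1 and 0 in Dgcr8, Drosha, Dicer and Ago, against 9.81%, 19.2%, 27.0% and 19.7% of all genes. Eif5a had log2 fold changes of -0.80 in Drosha and -0.90 in Dicer (edgeR adjusted p of 0.19 and 0.088), and Eef1a1 had 0.71 and 0.59 there (0.25 and 0.26). The 8 tested genes of eIF2, its kinases and its phosphatase regulators, with Gcn1l1, also had 0 calls against WT. At an unadjusted p under 0.05 there were 1, 0, 1 and 1 in the same order, against the same shares of all genes. Between knockouts 1 of the 8 was called, lower in Dgcr8 than in Dicer (adjusted p = 0.013, edgeR), where 4.07% of all genes were called. Of the 8 genes, Eif2ak4, the kinase that senses uncharged tRNA, had log2 fold changes from 0.00 in Dgcr8 to 0.46 in Ago.

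Between knockouts no synthetase differed by the test. In 6 pairs of knockouts, which gave 216 tests of members, edgeR called 0, with 4 at an unadjusted p under 0.05 (12.0% of all genes over the 6 pairs) and a lowest adjusted p of 0.16. DESeq2 and limma-voom also called 0, against 3.26% and 1.69% of all genes. The share of all genes called was 0.501% for Dgcr8 against Drosha, 4.07% for Dgcr8 against Dicer, 0.483% for Dgcr8 against Ago, 0.00911% for Drosha against Dicer, 0.0455% for Drosha against Ago and 0.547% for Dicer against Ago. Hars2 had a log2 difference of 1.45 (SE 0.50, adjusted p = 0.28, edgeR) for Dgcr8 against Drosha and of 1.13 (SE 0.48, adjusted p = 0.22, edgeR) for Dgcr8 against Dicer. Its fall in Drosha and Dicer was thus not shown to differ from its values in Dgcr8 or Ago.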

How the data were processed

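Ribosome footprints were measured in 10 libraries. The authors deposited a table of raw, unscaled counts in whole numbers, a row for each gene and a column for each library. Trimmomatic and Bowtie2, with mm10 (GRCm38) and dm6 (BDGP6), are named in the submitters' processing notes. The counting tool, annotation and strand setting are not given in the sources used here, so reads of overlapping genes cannot be told apart (11 members overlap another protein-coding gene). Drosophila spike-ins, per the labels' protocols, were not rows of the table. Columns were matched to samples by the library number in the labels, and the Ago replicate numbers follow the titles (1 and 2), while the column names give these libraries the numbers 2 and 3. Of the symbols, 16 turned into dates were replaced through the gene identifier. The labels do not say that replicates came from separate cultures, so the p-values speak of the spread among these libraries alone, which may be technical.

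Counts were fitted in R 4.3.3 with edgeR 4.0.16 (TMM, filterByExpr, quasi-likelihood, 1 mean per group, all 10 libraries, 5 residual degrees of freedom, median prior 6.69, biological coefficient of variation 0.306). Tests were 2-sided, with Benjamini-Hochberg adjustment over 10978 genes (33 removed) at 0.05. The SE is the absolute log2 fold change over the root of the F statistic. DESeq2 1.42.0, limma 3.58.1 (voom), other scalings, no filter, only the groups compared, a replicate block and each library left out were alternatives. The fits were checked on simulated counts. Levels per kb use the longest coding length in GENCODE M21. Depth ran from 1754710 to 80850950 counts, so low genes in Drosha and Dicer rest on few counts. PCR copies are not independent molecules, so binomial intervals (exact, 95%) cover counting error only.

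The members, lists and tests were chosen with earlier results of these data known. Given in full are members called in a knockout, the 2 highest and 2 lowest per class by mean log2 fold change, and the level extremes in WT. Other lists name at most 4 genes by adjusted p. Hars, Farsb, Cars, Yars, Ears2, Iars2, Klf4, Nes, Tubb3, Eif5a, Eif2ak4, the genes with printed promoter windows, Aars, Atf4, Asns, Aimp1, Aimp2, Eef1a1 and the genes below WT in all 8 knockout libraries were named after their values were seen, or for their role. Some promoter sequence is not reported here.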

Additional observations from a re-analysis of the deposited data

How the results depend on the processing

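With 2 libraries a group, calls near the threshold depend on single libraries and on the tool. With total count scaling 0 members were called in Drosha, and with limma-voom 0 in Drosha, 0 in Dicer and 1 (Hars2) in Ago. DESeq2 called 1 (Hars2) in Ago and 2 (Hars2 and Dars) in the mean of the knockouts. With only the groups compared in the fit, 5 were called in Dicer (Hars2, Dars, Farsb, Yars and Qars), where 29.5% of all genes were called, and the mitochondrial median in Ago was -0.14. With total count scaling the mitochondrial median in Dgcr8 was -0.03. Taken from class medians, the mitochondrial to cytosolic difference in Drosha was 0.33, against -0.02 from sums. The cause of these shifts was not tested.

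Replicate numbers 1 and 2 recur in all groups, and deviations of same-numbered libraries correlated by r of 0.08 to 0.32 over the 10 pairs of groups, positive in all 10. The labels do not say that a number marks a shared batch or day, so the numbers were not taken as pairs. A fit with the titles' number as a block called 1 member in Drosha (7.01% of all genes), 1 in Dicer (17.1%), 0 in Ago (6.72%) and 2 in the mean (12.8%; Hars2 at adjusted p 0.0095 and Dars at 0.027, edgeR). The column names give the Ago libraries the numbers 2 and 3 instead. A replicate block with those numbers, added after seeing the data, called 1 in Drosha (8.66% of all genes), 2 in Dicer (Hars2 and Farsb, 19.7%), 1 in Ago (Dars, 6.36%) and 4 in the mean (Hars2, Dars, Eprs and Farsb, 14.9%), put the mitochondrial median in Ago at -0.18 and turned the sign of Farsa in Ago (-0.07).

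With each library left out in turn, members called ran from 0 to 1 in Dgcr8, 0 to 1 in Drosha, 0 to 1 in Dicer and 0 to 4 in the mean, and stayed at 0 in Ago. Without the second Drosha library the 1 member called in Drosha was Wars (log2 -1.77, adjusted p 0.047, edgeR). Cytosolic medians ran from -0.51 to -0.09 in Dgcr8, -0.43 to -0.09 in Drosha, -0.42 to -0.34 in Dicer, -0.31 to -0.02 in Ago and -0.38 to -0.24 in the mean, and mitochondrial medians from -0.05 to 0.02, -0.16 to 0.02, -0.13 to 0.00, -0.22 to 0.00 and -0.09 to -0.04. The log2 class ratio ran from -0.02 to 0.49 in Dgcr8, -0.24 to 0.19 in Drosha, 0.15 to 0.40 in Dicer and -0.17 to 0.27 in Ago. Over all genes, calls fell to 1 in Drosha, 139 in Dicer, 3 in Ago and 3 in the mean without the second WT library, against 378, 1220, 316 and 776, and in Dgcr8 they ran from 0 without its second library to 107 without its first, against 8, so the shares of all genes called rest on single libraries too. In Dgcr8, signs turned for Sars2 (-0.69), Qars (-0.19), Farsa (-0.11), Pars2 (-0.03) and Eef1e1 (0.04) without the second Dgcr8 library, against highest values of 1.44, 0.90, 0.53 and 0.17 and, for Eef1e1, a lowest of -0.35 over the libraries left out. Pars2 also turned there without the first WT library (-0.07) and with limma-voom (-0.02). Without both Dgcr8 libraries, a setting added after seeing the data, Hars2 was at -2.05 in Drosha (adjusted p 0.042, edgeR), -1.73 in Dicer (0.037) and -1.71 in the mean of 3 knockouts (0.010). Of the other recomputed fold changes of named genes, 1120 kept their direction and side of the threshold, 52 passed it only in the alternative and 29 only in the fit reported.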
